A study of Rattus norvegicus with 62 samples.

Results

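A set of 10 genes of insulin and insulin-like growth factor (IGF) signalling was followed in hearts of male rats of the outbred Wistar stock that had been dosed with rosiglitazone. The 10 genes were the ligands Igf1 and Igf2, the receptors Igf1r and Insr, the receptor substrates Irs1 and Irs2, and the binding proteins Igfbp3, Igfbp4, Igfbp5 and Igfbp6. They were taken by name: every probe set of the array (a group of short probes for 1 transcript) whose annotation gave exactly 1 gene, that gene being one of the 10, was used, which gave 10 of 14218 genes and 23 of the 31042 probe sets. The rule uses no measured value, but the 10 genes were chosen with earlier results of these data known. Of these, 18 probe sets of 9 genes lay at or above the 40th percentile of mean log2 signal and were tested among 18625 kept probe sets. The 5 others were the single Irs1 probe set, 3 of the 4 Igf2 probe sets and 1 of the 5 Igfbp5 probe sets.

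Rosiglitazone is an oral glucose-lowering drug that activates the nuclear receptor PPAR gamma. By the labels, oral dosing once a day for 14 days used vehicle, 10 mg/kg or 80 mg/kg, and cardiac muscle was sampled 6, 24, 168 and 336 h after the last dose. The 62 arrays comprised 4 (6 h), 6 (24 h), 5 (168 h) and 5 (336 h) from vehicle, 5, 5, 5 and 6 from the low dose, and 5, 5, 6 and 5 from the high dose. Whether samples came from separate animals is not stated in the labels, and p-values here reflect only how these samples vary, which may be technical. The labels name no disease model.

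As background, insulin and the IGFs act through related receptor tyrosine kinases. The receptors recruit the adaptors Irs1 and Irs2, which activate PI3 kinase and Akt, the route to glucose uptake through the transporter Slc2a4 (GLUT4) and to growth of heart muscle cells. IGFs in tissue are held by binding proteins that lengthen their life or limit access to the receptor, and Igf1 is made in liver and also locally in heart, under growth hormone. Rosiglitazone is used because it raises insulin sensitivity, mainly through fat tissue.

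The 3 members with a called change over sampling time in vehicle hearts are Igf1, Igf1r and Insr, and the 250 bases before their annotated starts are given to show how different their promoters are. They are RefSeq sequences of build GRCr8, 5′ to 3′ on the gene's strand. Capitals mark a GC box (GGGCGG, bound by Sp1-type factors) in Igf1r and a FoxO core (TGTTTAC) in Insr, and the Igf1 window holds neither.
Igf1, chr7:24172282-24172531, + strand: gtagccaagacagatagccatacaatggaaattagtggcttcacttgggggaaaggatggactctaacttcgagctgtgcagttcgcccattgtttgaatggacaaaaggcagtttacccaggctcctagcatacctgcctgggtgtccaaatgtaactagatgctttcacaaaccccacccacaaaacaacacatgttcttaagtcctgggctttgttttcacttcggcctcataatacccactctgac
Igf1r, chr1:130959747-130959996, + strand: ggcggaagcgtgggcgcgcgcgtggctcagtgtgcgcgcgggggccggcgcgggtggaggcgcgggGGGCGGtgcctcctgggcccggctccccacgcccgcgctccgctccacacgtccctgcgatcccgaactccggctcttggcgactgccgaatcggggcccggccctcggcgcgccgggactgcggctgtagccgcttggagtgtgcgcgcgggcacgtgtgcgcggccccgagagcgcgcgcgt
Insr, chr12:6128804-6129053, - strand: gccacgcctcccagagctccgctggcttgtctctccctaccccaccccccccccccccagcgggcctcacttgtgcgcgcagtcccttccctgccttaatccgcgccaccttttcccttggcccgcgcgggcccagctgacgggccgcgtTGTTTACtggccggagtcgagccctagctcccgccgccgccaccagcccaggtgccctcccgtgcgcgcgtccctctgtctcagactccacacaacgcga

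The Igf1 window was 46.8% G or C, against 79.6% in Igf1r and 71.2% in Insr, with a median of 51.2% over 33469 RefSeq promoter windows of the same length. The GC box of Igf1r began 184 bases before the start and the FoxO core of Insr 100 bases before it. Windows of other members, not printed here, also held a GC box (Igf2 and Irs1) or a FoxO core (Igfbp6). Of these, Igf2 and Igfbp6 were not called over time in vehicle, and Irs1 was too dim for that test. On either strand the GC box occurred in 30.5% of all windows and the FoxO core in 3.21%, and the letters of these 2 motifs share no match here. The direct repeat of 2 AGGTCA copies with 1 base between, the site type that PPAR gamma binds with its partner RXR, occurred in 0.0508% of all windows and in 0 of the 10 windows found for 9 members. A match is a description of letters and no match says only that these letters are not in the window.

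Values below are log2 signals after quantile normalization between arrays, and each difference is between group means, given with its standard error (SE). Levels of different probe sets are not set against each other. A change was called at an adjusted p under 0.05 from limma's moderated test, with Benjamini-Hochberg adjustment over the 18625 kept probe sets. The arrays fell into 3 clusters by their first 2 principal components, A with 21 arrays, B with 21 and C with 20. All 16 arrays at 336 h lay in cluster A, with 5 arrays of other times. The mean of 6 cardiomyocyte genes lay between 13.48 and 13.62 in vehicle hearts at 336 h and between 13.40 and 13.59 at 168 h, so the labelled tissue carries its markers. In all, 10 arrays had high Myl7, an atrial myosin light chain gene, and 3 showed large 3′ over 5′ signal on the actin controls, as degraded RNA can give. On the hexokinase controls the 3′ minus 5′ log2 difference was 1.42 to 2.45 in cluster A, 1.38 to 1.97 in B and 2.09 to 6.08 in C. Clusters B and C thus did not overlap on this control, and its part in making the clusters was not tested. In tissue samples such as these, fewer cells of a type and less RNA per cell cannot be told apart.

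Rosiglitazone gave no called change in any of these genes. At 80 mg/kg against vehicle 0 of the 18 probe sets passed limma's test at 6, 24, 168 and 336 h, where 0.0537%, 0.14%, 0.0537% and 0.29% of all kept probe sets were called. At 10 mg/kg against vehicle 0 of 18 passed at each time, with a background of 0% at all 4 times. Between 80 and 10 mg/kg 0 of 18 passed as well, with 0%, 0.0107%, 0.0376% and 0.102% of all probe sets called in the order of the times. An unadjusted p under 0.05 was found in 1, 2, 1 and 4 of the 18 at 80 mg/kg (6.65%, 11.1%, 5.44% and 6.97% of all probe sets), in 2, 1, 0 and 1 at 10 mg/kg (6.42%, 5.84%, 3.86% and 3.63%), and in 0 of 18 between the doses at each time. The median difference over the 9 main probe sets, the brightest of each gene, was -0.03, -0.04, -0.11 and 0.06 at 80 mg/kg, beside 0.01, -0.02, -0.01 and -0.01 over all kept probe sets. The effect of a dose did not pass the test for a difference between the 4 times in any of the 18, with 0.0215% of all probe sets called for 80 mg/kg and 0% for 10 mg/kg. On the deposited scale the median of all probe sets itself differed from vehicle by 0.37, -0.30, -0.21 and 0.04 at 80 mg/kg and by -0.01, -0.36, -0.25 and 0.14 at 10 mg/kg, and signs of single differences changed with the scaling, so no direction is read from them. Among other cells' markers, Kdr, a receptor of endothelial cells, was called at 80 mg/kg at 336 h, by 0.48 ± 0.09 (SE, limma adjusted p = 0.00401), 1 of 5 endothelial genes, and its part in the differences at that time was not tested.

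The intervals show what size of change these arrays leave room for. Each rests on the spread of its probe set within all 12 groups, and so is not a measure of the spread at a single time. For 14 of the 18 probe sets at 80 mg/kg, and for 15 of the 18 at 10 mg/kg, the 95% intervals at all 4 times lay within 1 log2 unit of 0. The ones that reached further at 80 mg/kg were Igf1r 1392492_at, Igfbp3 1367652_at and the Igfbp5 probe sets 1387348_at and 1396152_s_at.

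**Figure D1:**
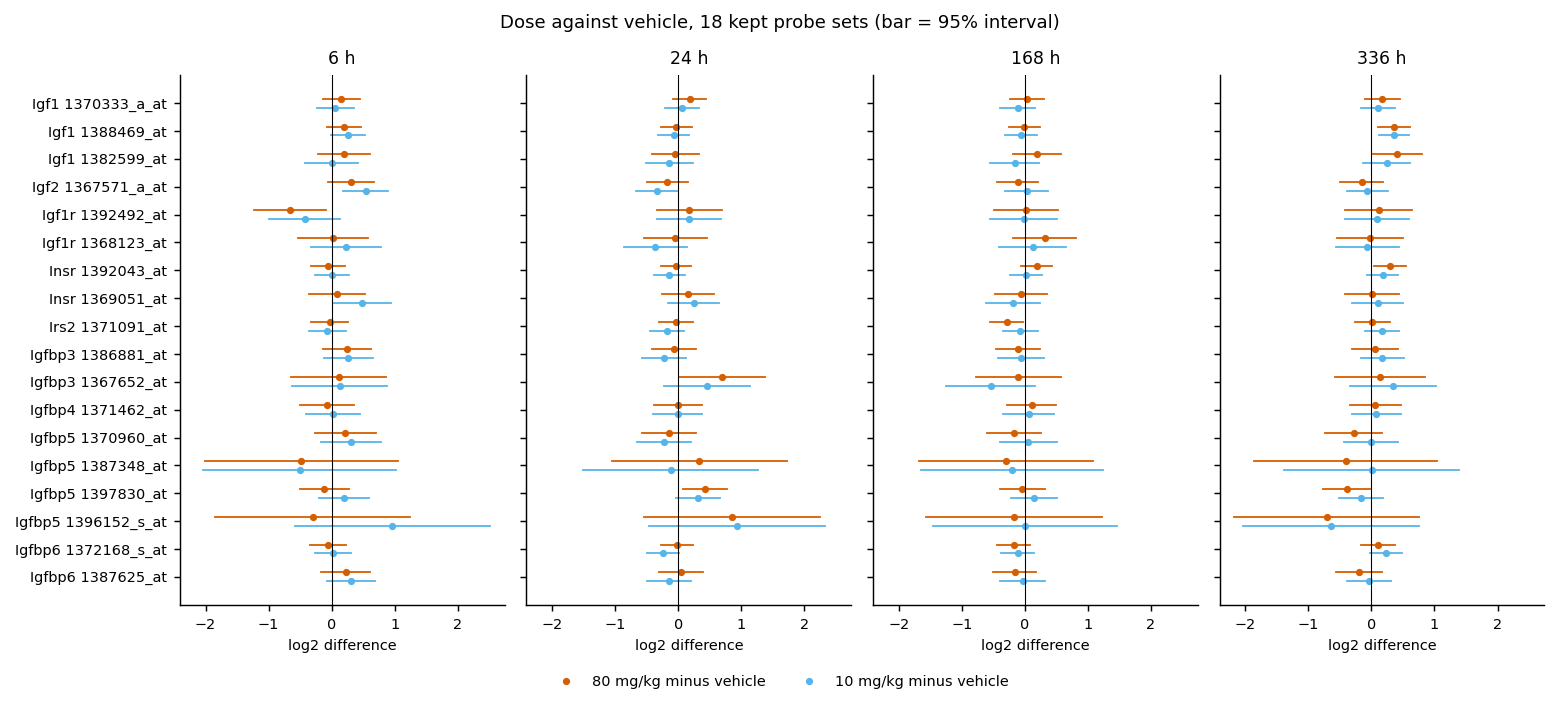
Log2 difference from vehicle at 80 mg/kg (orange) and at 10 mg/kg (blue) for the 18 kept probe sets, 1 panel per sampling time. Points are differences of group means and bars their 95% intervals. Adjusted for all probe sets, 0 of the points passed the test, and the widest bars belong to Igfbp5 1387348_at and 1396152_s_at.

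Igf1, the growth factor that heart muscle answers to through Igf1r, had 3 kept probe sets. On the main one, 1370333_a_at, values at 336 h were 8.95, 9.12, 9.14, 9.16 and 9.20 in 80 mg/kg hearts and 8.72, 8.88, 8.92, 9.09 and 9.11 in vehicle hearts. The 6 hearts at 10 mg/kg had 8.79 to 9.25 (median 9.04). The groups overlap, and over all 12 groups the means of this probe set ran only from 8.84 (vehicle, 6 h) to 9.11 (80 mg/kg, 336 h). At 80 mg/kg its difference from vehicle lay between 0.03 and 0.18 at the 4 times, with intervals between -0.24 and 0.45, and on the deposited scale it was -0.18 at both 24 and 168 h.

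The second Igf1 probe set, 1388469_at, differed in the same direction at both doses at 336 h. Its values were 8.03, 8.05, 8.20, 8.33 and 8.35 in 80 mg/kg hearts and 7.55, 7.72, 7.84, 7.91 and 8.15 in vehicle hearts. The 6 hearts at 10 mg/kg had 8.09 to 8.34 (median 8.18). The dosed hearts lay above 4 of the 5 vehicle hearts, with the highest vehicle heart inside their range. The difference was 0.36 ± 0.13 at 80 mg/kg (SE, n = 5 and 5, limma adjusted p = 0.406) and 0.36 ± 0.12 at 10 mg/kg (n = 6 and 5, limma adjusted p = 0.9997), both set against the same vehicle arrays. At 6, 24 and 168 h it was 0.19, -0.03 and -0.01 at 80 mg/kg.

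The third, 1382599_at, had 6.40, 6.47, 6.50, 6.66 and 6.93 in 80 mg/kg hearts at 336 h against 6.02, 6.06, 6.13, 6.20 and 6.49 in vehicle hearts. The groups overlap by 1 vehicle heart, and the difference of 0.41 ± 0.20 (SE) had a limma adjusted p = 0.662. Across arrays within groups the 3 Igf1 probe sets followed each other weakly, with correlations of 0.16, 0.29 and 0.28 over 62 arrays.

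Igf2, a growth factor best known from fetal growth, had 1 kept probe set. On this one, 1367571_a_at, the 6 h values were 8.74, 8.81, 8.94, 9.33 and 9.48 in 10 mg/kg hearts and 8.30, 8.37, 8.45 and 8.96 in vehicle hearts, a difference of 0.54 ± 0.18 (SE, limma adjusted p = 0.587). At 24 h they were 8.01, 8.32, 8.62, 8.90 and 9.02 in 10 mg/kg hearts against 8.81 to 9.09 (median 8.90) in the 6 vehicle hearts, a difference of -0.34 ± 0.16 (limma adjusted p = 0.848). The sign of this probe set thus differed between 6 and 24 h, the groups overlapped at both, and the test of a difference of the effect between times had an adjusted p = 0.984. Of the arrays with high Myl7, 4 were among the 5 at 10 mg/kg and 1 among the 4 vehicle arrays at 6 h, and without them the 6 h difference was 0.34. None of the 4 kept atrial genes was called there, with a median difference of 1.37, and the list mean ran from 7.09 to 11.85 in 10 mg/kg hearts and from 7.09 to 11.76 in vehicle hearts. Within array clusters the 24 h difference was -0.64 in B (2 arrays against 1) and 0.02 in C (2 against 5).

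The receptor genes likewise passed no dose test. Igf1r, the IGF1 receptor, had 6.92, 7.50, 7.69, 7.75 and 8.05 on 1392492_at in 80 mg/kg hearts at 6 h, and 8.02, 8.11, 8.14 and 8.69 in vehicle hearts. Of the dosed hearts 1 reached into the vehicle range, and the difference was -0.66 ± 0.28 (SE, n = 5 and 4, limma adjusted p = 0.676). It was -0.41 within cluster B (2 arrays against 3), -0.65 within cluster C (3 against 1), and -0.34 without the arrays of high Myl7, which were 2 of the 5 at 80 mg/kg and 1 of the 4 in vehicle. Insr, the insulin receptor, had 7.11, 7.46, 7.62, 7.63 and 7.82 on 1392043_at in 80 mg/kg hearts at 336 h, against 7.05, 7.14, 7.25, 7.33 and 7.42 in vehicle hearts, a difference of 0.29 ± 0.13 (SE) with a limma adjusted p = 0.620. The second Insr probe set, 1369051_at, differed by 0.01 there, within an interval of -0.42 to 0.43.

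Irs2, an adaptor that links both receptors to PI3 kinase, was measured by 1 probe set. At 168 h its 6 values in 80 mg/kg hearts ran from 7.07 to 7.59 (median 7.44), against 7.28, 7.41, 7.67, 8.02 and 8.16 in vehicle hearts. The difference of -0.29 ± 0.13 (SE) had a limma adjusted p = 0.883, and the vehicle group was the more spread of the pair (SD 0.38 against 0.19). Irs1, the other adaptor, was dim on its only probe set 1369771_at, with a mean log2 signal of 4.79 and group means between 4.39 and 5.12. In the fit without a filter on dim probe sets its difference from vehicle at 336 h was -0.61 ± 0.51 at 80 mg/kg (SE, limma adjusted p = 0.954). Its values there were 2.47, 4.10, 5.18, 5.22 and 5.28 in 80 mg/kg hearts and 4.46, 4.60, 5.30, 5.34 and 5.61 in vehicle hearts. The groups overlap, and the lowest dosed array lay well under the other 4.

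Among the binding proteins, Igfbp3, the main carrier of IGFs in blood, had 2 kept probe sets. On the dimmer one, 1367652_at, at 24 h the 80 mg/kg hearts had 6.05, 6.54, 6.66, 7.33 and 7.42, against 5.66 to 6.50 (median 6.15) in the 6 vehicle hearts, a difference of 0.69 ± 0.34 (SE, limma adjusted p = 0.445). The 2 highest dosed arrays were the 2 of cluster A, and within cluster B the difference was 0.22 (2 arrays against 1) and within cluster C 0.55 (1 against 5). Arrays with high Myl7 were 3 of the 5 at 80 mg/kg and 0 of the 6 in vehicle at 24 h, and without them the difference was 0.63. The 4 kept atrial genes had a median difference of 2.05 there, and their mean ran from 7.43 to 12.18 in 80 mg/kg hearts and from 7.25 to 8.49 in vehicle hearts. On the brighter probe set of Igfbp3, 1386881_at, the difference at 24 h was -0.07.

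Igfbp5, a binding protein made by many mesenchymal cells, gave opposite signs at different times on 1397830_at. In 80 mg/kg hearts it differed from vehicle by 0.43 ± 0.18 at 24 h (SE, limma adjusted p = 0.369) and by -0.39 ± 0.18 at 336 h (limma adjusted p = 0.658), and the 24 h difference was -0.19 within cluster B (2 arrays against 1), 0.68 within cluster C (1 against 5) and 0.30 without the arrays of high Myl7. The dimmest kept Igfbp5 probe set, 1396152_s_at, had 4.80, 4.89, 5.49, 5.94 and 6.15 in 80 mg/kg hearts at 24 h, against 0.48 to 6.78 (median 5.54) in the 6 vehicle hearts, a difference of 0.85 ± 0.70 (SE, limma adjusted p = 0.680). At 10 mg/kg it was 0.93 ± 0.70 at the same time (limma adjusted p = 0.869), and the vehicle values spread around both dosed groups. On 1397830_at the 336 h values were 7.03, 7.09, 7.17, 7.29 and 7.58 in 80 mg/kg hearts against 7.53, 7.61, 7.62, 7.66 and 7.71 in vehicle hearts, with 1 dosed heart in the vehicle range. On 1387348_at the 336 h groups did not overlap at all, with 7.66, 7.99, 8.06, 8.09 and 8.11 in 80 mg/kg hearts against 8.17, 8.35, 8.39, 8.45 and 8.58 in vehicle hearts, the only one of the 18 with this pattern in that comparison, where 2.52% of all probe sets had it. Its difference of -0.41 ± 0.72 (SE) had a limma adjusted p = 0.998, and over the other times single arrays of this probe set ran from 4.28 to 9.38. That SE rests on the spread within all 12 groups, so it does not measure the spread at 336 h alone. Arrays of this probe set ran from 8.57 to 9.38 in cluster B and from 4.28 to 7.97 in cluster C, while all 336 h arrays lay in cluster A. The main Igfbp5 probe set, 1370960_at, differed by -0.28 at 336 h, within an interval of -0.73 to 0.17. The Igfbp5 probe set left out as dim, 1387347_at, was fitted without a filter. At 80 mg/kg it differed by -0.66 ± 0.24 at 24 h (SE, limma adjusted p = 0.429), the opposite sign to 1397830_at and 1396152_s_at, and by 0.20 ± 0.25 at 336 h. Igfbp4 and the 2 Igfbp6 probe sets, binding proteins of the same family, stayed between -0.20 and 0.22 at 80 mg/kg at all 4 times, and 0 of these differences had an unadjusted limma p under 0.05.

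**Figure D2:**
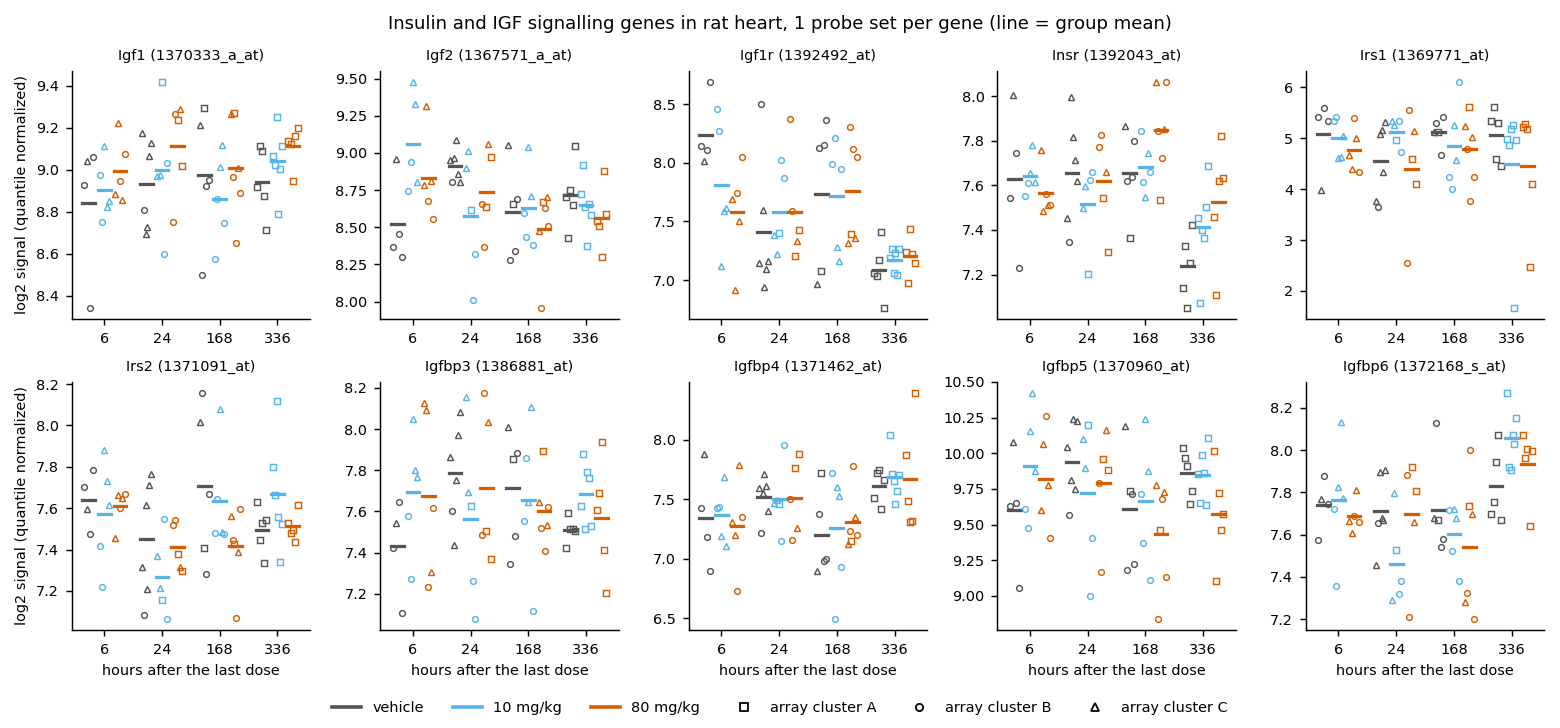
Log2 signal (vertical axis) of the brightest probe set of each of the 10 genes against hours after the last dose (horizontal axis), with vehicle grey, 10 mg/kg blue and 80 mg/kg orange. Each mark is 1 array, its shape gives the array cluster and the line is the group mean. The doses overlap in each panel at each time, and all arrays at 336 h are squares, the mark of cluster A.

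Levels of a few members differed between sampling times in hearts that received no drug, as did those of many other probe sets, and the counts are given beside the share of all probe sets called without a test that sets these genes apart. In vehicle hearts 3 of the 18 probe sets passed limma's test for any difference between the 4 times, where 8.05% of all probe sets were called. They were Igf1 1388469_at (adjusted p = 3.23e-05), Igf1r 1392492_at (limma adjusted p = 0.0271) and Insr 1392043_at (limma adjusted p = 0.0439). Between neighbouring times, 0 of the 18 passed from 6 to 24 h (0.226% of all probe sets, 2 of 18 at an unadjusted p under 0.05) and 0 passed from 24 to 168 h (0%, 1 of 18 unadjusted). From 168 to 336 h 2 passed, where 4.55% of all were called, and from 6 to 336 h 2 passed, where 9.7% were called. The 4 calls were all decreases.

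The Igf1 probe set 1388469_at held its level through 168 h and was low at 336 h. Vehicle hearts had 8.19, 8.27, 8.52 and 8.76 at 6 h, 8.35 to 8.98 (median 8.72) in 6 hearts at 24 h, 8.41, 8.42, 8.54, 8.82 and 8.86 at 168 h, and 7.55, 7.72, 7.84, 7.91 and 8.15 at 336 h. The vehicle hearts at 336 h all lay below those of the 3 other times. The level fell by 0.78 ± 0.13 on the log2 scale at 336 h against 168 h (SE, limma adjusted p = 0.00212, 0.584 of the 168 h level) and by 0.60 ± 0.13 against 6 h (limma adjusted p = 0.0034). In vehicle 2 of the 18 probe sets did not overlap between 336 and 168 h, this one and Igfbp5 1397830_at, where 6.51% of all probe sets did not. The other Igf1 probe sets differed by -0.03 (1370333_a_at) and -0.20 (1382599_at) between 336 and 168 h and were not called, so the 3 probe sets of this gene disagree.

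Dosed hearts were compared over the same step in a comparison added after the vehicle values were seen. At 80 mg/kg the 336 h values of 8.03 to 8.35 compare with 8.32 to 8.71 (median 8.67) in 6 hearts at 168 h, and the level fell by 0.41 ± 0.12 (SE, limma adjusted p = 0.0483, with 3.02% of all probe sets called), though it was 0.10 higher on the deposited scale and the call was lost in 10 of the 11 fits that left out 1 array (adjusted p up to 0.118, limma). At 10 mg/kg the 336 h values of 8.09 to 8.34 lay wholly below 8.39, 8.45, 8.59, 8.64 and 8.64 at 168 h, and the difference was -0.35 ± 0.12 (limma adjusted p = 0.0766, with 5.11% of all called). Whether the doses differ in this step was asked only through the test of the dose effect over the 4 times, which gave an adjusted p = 0.736 for 80 mg/kg and 0.984 for 10 mg/kg. Igfbp3 1367652_at had 7.10 to 7.50 (median 7.46) in 6 hearts at 336 h and 10 mg/kg, against 5.34, 6.27, 6.30, 6.62 and 6.72 at 168 h, and Igfbp6 1372168_s_at had 7.91 to 8.27 (median 8.05) against 7.38, 7.52, 7.68, 7.72 and 7.72. Neither pair overlaps, a pattern of 3 of 18 members and of 6.48% of all probe sets. Igfbp3 1367652_at rose by 1.15 ± 0.34 (SE, limma adjusted p = 0.0348) and Igfbp6 1372168_s_at by 0.46 ± 0.13 (limma adjusted p = 0.0265). The main Igfbp3 probe set, 1386881_at, had group means of 7.68 at 336 h and 7.66 at 168 h at 10 mg/kg. Neither it nor the second Igfbp6 probe set, 1387625_at, was called. The Igfbp3 call was lost in 9 and the Igfbp6 call in 4 of the 11 fits that left out 1 array, and with the cluster as a factor the Igfbp3 difference was -0.21. In vehicle hearts the same steps were 0.26 and 0.11 and did not pass.

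Igf1r 1392492_at was highest in vehicle hearts at 6 h and lowest at 336 h. Its values were 8.02, 8.11, 8.14 and 8.69 at 6 h, 6.94 to 8.50 (median 7.15) in 6 hearts at 24 h, 6.97, 7.07, 8.12, 8.15 and 8.37 at 168 h, and 6.76, 7.03, 7.06, 7.17 and 7.41 at 336 h. At 24 and 168 h the vehicle hearts ranged widely, while those at 336 h were all low. In clusters A, B and C lay 0, 3 and 1 vehicle arrays at 6 h, 0, 1 and 5 at 24 h, and 1, 3 and 1 at 168 h. The vehicle arrays of 8.12 to 8.50 at 24 and 168 h were all in cluster B, and those at 336 h all in A. The level fell by 1.15 ± 0.28 at 336 h against 6 h (SE, limma adjusted p = 0.00729, without overlap, as in 2 of 18 members and 12.7% of all probe sets). The other Igf1r probe set, 1368123_at, differed by 0.32 ± 0.28 in the same comparison and was not called. The list of atrial genes ran from 6.84 to 7.48 at 336 h and from 7.09 to 11.76 at 6 h in these hearts. The 6 h array at 8.69 was the 1 of these 4 with high Myl7 (12.29). Without it the test between the 4 times had a limma adjusted p = 0.0988 for 1392492_at. The 336 against 6 h call held in all 9 fits that left out 1 array (limma adjusted p up to 0.0494). The part of atrial tissue was otherwise not tested. Within groups the 2 Igf1r probe sets ran against each other, with a correlation of -0.42 over 62 arrays, a description that rests on arrays shared by both.

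Insr 1392043_at was lowest in vehicle hearts at 336 h. Vehicle hearts had 7.23, 7.54, 7.75 and 8.01 at 6 h, 7.35 to 7.99 (median 7.67) at 24 h, 7.37, 7.62, 7.64, 7.80 and 7.87 at 168 h, and 7.05, 7.14, 7.25, 7.33 and 7.42 at 336 h. The lowest heart at 168 h lay inside the 336 h range. The level fell by 0.42 ± 0.13 at 336 h against 168 h (SE, limma adjusted p = 0.0448), a call lost in 8 of the 10 fits that left out 1 array (adjusted p up to 0.118, limma). The second Insr probe set differed by -0.38 ± 0.21 and was not called.

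**Figure D3:**
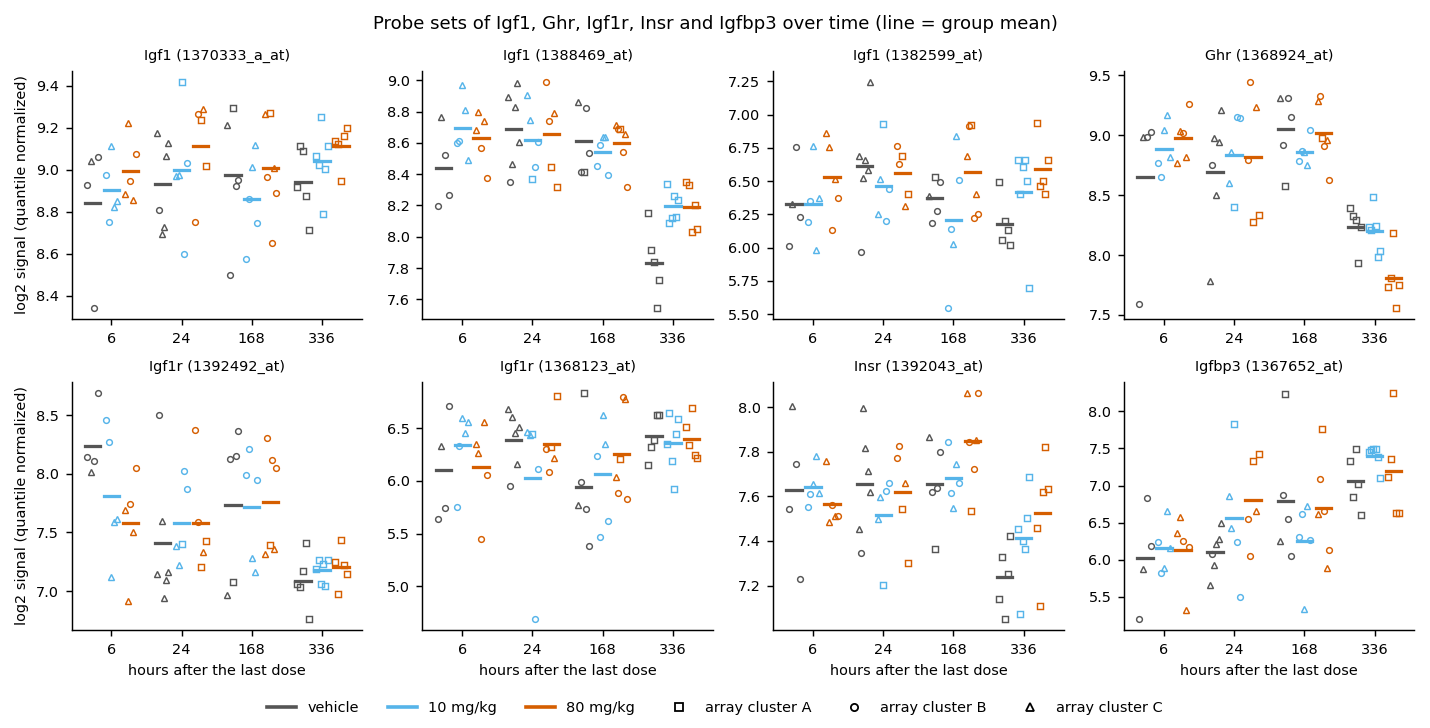
Log2 signal (vertical axis) of probe sets of Igf1, Ghr, Igf1r, Insr and Igfbp3 against hours after the last dose (horizontal axis). Each mark is 1 array, colour gives the dose, shape the array cluster and the line the group mean. Igf1 1388469_at and Ghr 1368924_at are low at 336 h at each dose, and Igfbp3 1367652_at is high in squares (cluster A) also at 24 and 168 h.

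Array cluster and the 336 h groups largely coincide, so the values are also given by cluster. For Igf1r 1392492_at the 5 cluster A arrays of other times lay between 7.07 and 7.42 (median 7.40), over the 336 h range of 6.76 to 7.43 (median 7.18), while cluster B ran from 7.59 to 8.69 and cluster C from 6.92 to 8.02. For Igfbp3 1367652_at those 5 arrays lay between 7.33 and 8.24, against at most 7.09 in clusters B and C. For Igf1 1388469_at, in contrast, the 336 h arrays ran from 7.55 to 8.35 (median 8.12) and the other cluster A arrays from 8.32 to 8.69 (median 8.42). Vehicle alone allows this within cluster A only as 5 arrays at 336 h against 1 at 168 h, with differences of -0.58 for Igf1 1388469_at, 0.01 for Igf1r 1392492_at and -0.13 for Insr 1392043_at. With the cluster as a factor in the fit the 336 against 168 h difference of Igf1 was -0.60 (limma adjusted p = 0.135) and that of Insr -0.14 (limma adjusted p = 0.914), and the 336 against 6 h difference of Igf1r was -0.58 (limma adjusted p = 0.324). The clusters were made from these same signals, all 336 h arrays lay in cluster A and no vehicle array at 6 h did. Over all probe sets the vehicle calls fell from 1807 to 32 at 336 against 6 h and from 848 to 0 at 336 against 168 h. A call lost with the cluster as a factor therefore cannot tell time from cluster. The origin of the clusters was not tested.

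The direction of these 4 vehicle changes was the same under quantile, median and no scaling of the arrays, but the calls were not. On the deposited scale, where the median of all probe sets moved by 0.24 at 336 against 168 h and by 0.16 at 336 against 6 h, Igf1 1388469_at differed by -0.53 (limma adjusted p = 0.461) and -0.44, Igf1r 1392492_at by -0.97 against 6 h and Insr 1392043_at by -0.18 against 168 h, and 0 of these passed. In the dosed hearts that median moved by 0.49 at 80 mg/kg and by 0.62 at 10 mg/kg, and the Igf1 step was 0.10 and 0.30 there, both positive, so in dosed hearts the fall is one relative to the other probe sets.

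**Figure D4:**
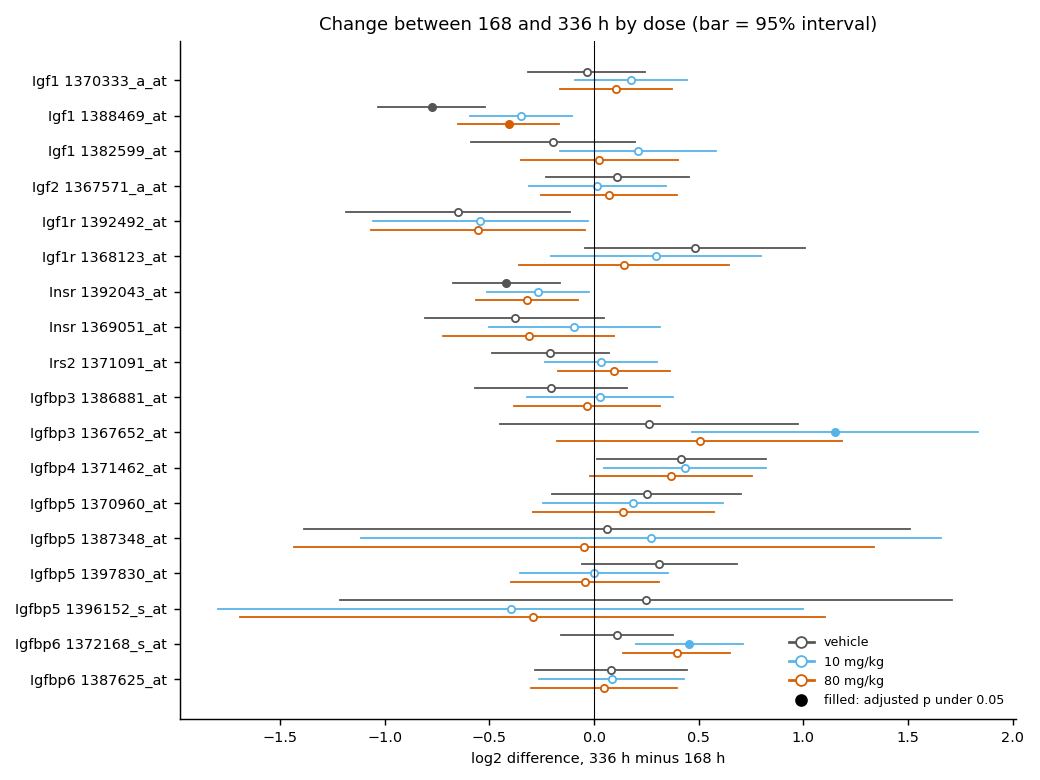
Log2 difference of 336 h minus 168 h (horizontal axis) in vehicle (grey), 10 mg/kg (blue) and 80 mg/kg (orange) hearts for the 18 kept probe sets. Bars are 95% intervals and filled points had an adjusted p under 0.05. Igf1 1388469_at is negative at each dose, -0.78 in vehicle, -0.35 at 10 mg/kg and -0.41 at 80 mg/kg.

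Other genes of the pathway were counted from a list of 79, of which 70 were measured and 62 kept, on the brightest probe set of each. Dose called 0 of the 62 in each of the 12 comparisons. In vehicle 9 of the 62 differed between the 4 times, beside 8.05% of all probe sets, and from 168 to 336 h 3 were higher and 2 lower, beside 1.79% and 2.76% of all probe sets. The higher ones were Gsk3a, a glycogen synthase kinase that Akt inhibits, by 0.99 ± 0.26 (SE), Mlst8, a subunit of both mTOR complexes, by 0.50 ± 0.13, and Slc2a4, the insulin-responsive glucose transporter, by 0.49 ± 0.13. The lower ones were Ghr, the growth hormone receptor, which differed by -0.82 ± 0.21, and Rictor, which defines mTOR complex 2, at -0.35 ± 0.11. Leaving out 1 array ended these calls in 3 of 10 fits for Gsk3a, 4 for Mlst8 and for Ghr, 6 for Slc2a4 and 7 for Rictor. The adjusted limma p-values of these 5 lay between 0.0216 and 0.0435, and with the cluster as a factor they lay between 0.477 and 0.843. In dosed hearts the same step called 2 of the 62 higher and 1 lower at 80 mg/kg, beside 3.02% of all probe sets. They were Stc1 (0.81 ± 0.21, SE), Gsk3b (1.41 ± 0.40) and Ghr, given below. At 10 mg/kg 5 were higher and 3 lower, beside 5.11%. By adjusted p the first were Crk (-0.41 ± 0.09), Rheb (-0.37 ± 0.08), Igfbp7 (0.51 ± 0.13), Slc2a4 (0.44 ± 0.13), Igf2r (0.59 ± 0.18) and Tsc2 (1.35 ± 0.41). Second probe sets differed by 0.01 for Rheb, -0.08 for Igf2r and 0.44 for Slc2a4 and were not called. Of the other Crk probe sets, 1374536_at was called (-0.26) and 1369912_at was not (-0.40). The Tsc2 values at 168 h were 4.41, 4.73, 6.96, 7.18 and 7.51, of which 4.41 and 4.73 lay below the filter level of 5.03. At 80 mg/kg leaving out 1 array ended the call of Gsk3b in 10 of 11 fits and that of Stc1 in 6. At 10 mg/kg it did so in 9 of 11 for Igf2r, 8 for Tsc2, 6 for Slc2a4, 1 for Igfbp7 and 0 for Crk and Rheb. The second Stc1 probe set, 1396101_at, differed by 0.63 at 80 mg/kg and was not called. With the cluster as a factor none of the called brightest probe sets named for the dosed steps passed.

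Ghr, through which growth hormone drives Igf1, was low at 336 h in each dose group on 1368924_at. At 80 mg/kg the 336 h values were 7.56, 7.73, 7.75, 7.81 and 8.19, against 8.62 to 9.33 (median 8.97) in 6 hearts at 168 h, a difference of -1.21 ± 0.21 (SE, limma adjusted p = 0.00089, with 3.02% of all probe sets called). It was -0.69 on the deposited scale (limma adjusted p = 0.0753) and -0.76 with the cluster as a factor (limma adjusted p = 0.346). In vehicle they were 7.94, 8.24, 8.29, 8.32 and 8.39 at 336 h, against 8.57, 8.92, 9.15, 9.31 and 9.31 at 168 h. At 10 mg/kg the difference was -0.66 ± 0.21 (limma adjusted p = 0.0459, with 5.11% of all called), -0.01 on the deposited scale and -0.12 with the cluster as a factor, and the call was lost in 10 of the 11 fits that left out 1 array. No heart at 336 h overlapped its 168 h group at these doses. Of all probe sets 6.51% had this pattern in vehicle and 6.48% at 10 mg/kg, and the share at 80 mg/kg is not given here. The second Ghr probe set, 1373803_a_at, differed by -0.23 at 80 mg/kg, -0.14 at 10 mg/kg and -0.17 in vehicle and was not called. The 5 cluster A arrays of other times had 8.28 to 8.98 on 1368924_at, against 7.56 to 8.49 at 336 h.

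From 6 to 336 h in vehicle, 9 of the 62 pathway genes were higher and 6 lower, beside 4.42% and 5.28% of all probe sets. By adjusted p the first were Irs3, an adaptor of rodents related to Irs1 (2.02 ± 0.41, SE), Gsk3a (1.34 ± 0.27), Grb10, an adaptor that restrains the insulin and IGF1 receptors (-0.59 ± 0.12), Rictor (-0.50 ± 0.11), Ddit4, a stress-induced inhibitor of mTOR complex 1 (-1.18 ± 0.27), and Igf2r, the receptor that clears IGF2 (0.85 ± 0.20). The vehicle hearts at 6 h had 2.90, 3.34, 4.25 and 4.60 on the Irs3 probe set, all below the filter level of 5.03 that its mean over all arrays passed, so the size of its difference rests on a dim group. The Irs3 difference was 1.76 ± 0.40 at 24 against 6 h (limma adjusted p = 0.0289), the only call of the list in that step, lost in 5 of the 10 fits that left out 1 array. With the cluster as a factor 0 of these 6 calls remained (limma adjusted p between 0.0649 and 0.980), and the Gsk3a difference was 0.76. Over all probe sets 1807 calls became 32 in that fit, so the loss is not particular to these genes. On the deposited scale 1 remained, that of Irs3 (limma adjusted p = 0.0487). Igf2r moved with the clusters: on 1386872_at its cluster A arrays of other times ran from 9.79 to 9.97, against 9.49 to 9.94 at 336 h and at most 9.46 in clusters B and C, and with the cluster as a factor its difference was -0.02. The second Igf2r probe set, 1367636_at, differed by 0.02 and was not called.

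Markers of other cells were followed beside these changes. From 168 to 336 h in vehicle 1 of 8 fibroblast genes was lower, Pdgfra at -0.35 ± 0.10 (SE, limma adjusted p = 0.0317), and 1 of 6 macrophage genes, Mrc1 at -0.70 ± 0.17 (limma adjusted p = 0.0166). Of all probe sets 4.55% were called in that step. The mean of the 8 fibroblast genes ran from 9.75 to 10.14 at 336 h and from 9.78 to 10.43 at 168 h, that of the 6 macrophage genes from 6.97 to 7.63 and from 7.11 to 7.80 at the same times. The lists for heart muscle, atrium, endothelium, smooth muscle, fat, skeletal muscle, mesothelium, red blood cells and Schwann cells had 0 called members in that step, those for fat, skeletal muscle and Schwann cells resting on 1 kept gene each. From 6 to 336 h in vehicle 5 marker genes were called, beside 9.7% of all probe sets. Of the 6 macrophage genes 1 was higher, the antigen-presentation gene Cd74 at 0.32 ± 0.09 (SE), and 1 lower, Mrc1 at -0.56 ± 0.18. The rest were Acta2, 1 of 6 smooth muscle genes, at 0.98 ± 0.29, Pdgfra, 1 of 8 fibroblast genes, at -0.40 ± 0.10, and the globin gene Hbb, 1 of 3 red blood cell genes, at -0.34 ± 0.11. The mean of the 6 smooth muscle genes ran from 7.66 to 8.11 at 336 h and from 7.25 to 8.04 at 6 h in these hearts. From 168 to 336 h at 10 mg/kg Acta2 differed by 0.87 ± 0.26, Cd74 by 0.27 ± 0.08 and Hbb by -0.44 ± 0.10, all called, and at 80 mg/kg Cd74 alone was called, at 0.28 ± 0.08. Of all probe sets 5.11% were called over these times at 10 mg/kg and 3.02% at 80 mg/kg. At 10 mg/kg the mean of the smooth muscle genes ran from 7.76 to 8.20 at 336 h and from 7.28 to 7.85 at 168 h. The part of these markers in the Igf1, Igf1r, Igfbp3 and Igfbp6 values of the same steps was not tested. The part of fibroblasts and macrophages, cells that make IGF1 in heart, in the Igf1 value was not tested.

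The genes most like 3 members over the 62 arrays were named for the main probe sets with the widest range of group means. Igf1r 1392492_at went with Rpl11, a ribosomal protein gene (r = 0.85), Ube2g1, a ubiquitin-conjugating enzyme gene (r = 0.84), and Wdr26 (r = 0.83). Insr 1392043_at went with U2surp, Borcs7 and Xpo1, each at r = 0.62. Irs1 1369771_at, which is dim, went with Gimap1 (r = 0.56), Setdb2 (r = 0.54) and Zfp236 (r = 0.51). These are correlations over arrays that share scale, cluster and RNA quality, and are given as a description.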

How the data were processed

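The deposited values are probe set intensity values on a linear scale from Affymetrix rat arrays, made by the authors with GCOS and MAS5, per the submitters' processing notes. Versions are not given in the sources used here. The deposited table held 31099 probe sets on 62 arrays, and the median signal of an array ran from 31.1 to 86.9. Without 57 controls, signals were taken to log2 and quantile normalized, and probe sets below the 40th percentile of mean signal (5.03) were left out. A limma 3.58.1 model (R 4.3.3) with 12 group means was fitted to all 62 arrays, with 50 residual degrees of freedom, and p-values were adjusted by the Benjamini-Hochberg method over 18625 probe sets per comparison. The fit was tested on simulated data. No 2 arrays were identical, and the number of arrays limits the precision.

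Probe sets were named through the platform annotation when it gave 1 gene. All kept member probe sets are described, and the brightest is the main one. Of the dim ones, values are given for Irs1 and for Igfbp5 1387347_at. Pathway genes are named when called, up to 6 per comparison by adjusted p. The members and lists were chosen with earlier results of these data known. Alternatives were the deposited scale, median scaling, other filters, an added constant of 16, array weights, a replicate block, array clusters, RNA quality covariates, the compared arrays alone and each array left out.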

Additional observations from a re-analysis of the deposited data

Results flagged for a closer look

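Single arrays far from the rest of their group were looked for in 144 groups of 12 probe sets by Dixon's test, which chance passes in about 1 in 20 groups, and 9 were found. Low arrays were Igf2 1367571_a_at at 7.96 in replicate 2 of 80 mg/kg at 168 h, Irs1 1369771_at at 3.98 in replicate 3 of vehicle at 6 h and at 1.67 in replicate 5 of 10 mg/kg at 336 h, Igfbp6 1372168_s_at at 7.64 in replicate 4 of 80 mg/kg at 336 h, and Igfbp3 1367652_at at 7.10 in replicate 6 of 10 mg/kg at 336 h. High arrays were Insr 1392043_at at 7.76 in replicate 1 of 80 mg/kg at 6 h, Irs2 1371091_at at 8.08 in replicate 4 of 10 mg/kg at 168 h, Igfbp4 1371462_at at 7.78 in replicate 4 of 80 mg/kg at 168 h, and Igfbp6 1372168_s_at at 8.13 in replicate 2 of vehicle at 168 h.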

How the results depend on the processing

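The count of members called for dose was 0 under every alternative run, the replicate block and each array left out included. For the vehicle level between times the count of 3 was 0 on the deposited scale and with the array cluster as a factor, and 1 with the compared arrays alone, with the 3 high-actin arrays left out or with no filter. It ran from 1 to 3 when 1 array was left out, with 1 without vehicle replicate 3 at 336 h. The vehicle steps, with 4 calls, had 0 on the deposited scale and 0 with the cluster as a factor, and 3 to 6 with 1 array left out. The 3 calls for 336 against 168 h in dosed hearts became 12 on the deposited scale, 0 with median scaling, without a filter and with the cluster as a factor, 5 with array weights, 1 without the high-Myl7 arrays, and 0 to 3 with 1 array left out. The cause of these shifts was not tested.

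Many small differences changed sign under at least 1 of the alternatives, among them 14 of the 18 at 80 mg/kg against vehicle at 24 h, 10 at 6 h, 10 for vehicle at 336 against 168 h, and 14 at 80 mg/kg and 15 at 10 mg/kg for that step. Those with an unadjusted p under 0.05, and called pathway genes, reversed as follows. With the cluster as a factor Igfbp3 1367652_at was -0.32 at 336 against 6 h in vehicle and -0.21 at 336 against 168 h at 10 mg/kg, Insr 1392043_at was 0.095 in the last comparison, Igfbp7 -0.10 and Igf2r -0.23 there, and Igf2r -0.023 at 336 against 6 h in vehicle. On the deposited scale at 336 against 168 h, Igf1 1388469_at was 0.10 and Insr 0.18 at 80 mg/kg, and Igf1 0.30, Igf1r 1392492_at 0.11, Insr 0.36, Crk 0.22 and Rheb 0.25 at 10 mg/kg.

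Over all probe sets, the 848 calls for vehicle at 336 against 168 h became 0 on the deposited scale, 135 with median scaling, 385 without a filter, 2238 with array weights, 0 with the cluster as a factor and 523 with the compared arrays alone. The 26 calls for 80 mg/kg at 24 h became 214 with median scaling and 1 on the deposited scale.

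Replicate numbers showed no clear pairing of the samples: deviations of arrays with the same number had mean correlations of 0.01, -0.01, 0.05 and 0.01 at 6, 24, 168 and 336 h. At these times 4 of 10, 3 of 14, 7 of 14 and 0 of 14 such pairs lay above 0.1. Pairing is not excluded by these values, and the labels do not say what the number stands for. With the replicate block the counts were 0 for dose, 2 for vehicle between times, 4 for the vehicle steps and 3 for the dosed steps. Dim signal limits Irs1, 3 of the Igf2 probe sets and Igfbp5 1387347_at.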
